A study of Mus musculus with 24 samples.

Results

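Hepatic expression of the Cyp4a fatty acid omega-hydroxylases was examined in mice with and without the Mup gene cluster. The genes were taken by name from the count data, and they are Cyp4a10, Cyp4a12a, Cyp4a12b, Cyp4a14, Cyp4a31 and Cyp4a32, 6 of the 25746 genes listed. All 6 members passed the filter on low counts described below, as did 12330 genes in all. Liver RNAseq was available from 24 mice aged 12 weeks on a C57/BL6N background, with 6 mice each of wildtype males (mWT), knockout males (mKO), wildtype females (fWT) and knockout females (fKO). KO mice lack the whole Mup cluster, which encodes major urinary proteins, in every cell of the body. According to the study's methods the deletion was made with CRISPR/Cas9 and goes back to a single male founder, so all KO mice carry the same deletion. The mice of all groups ate chow ad libitum and had a short fast with isoflurane anesthesia for a body scan before death. Each library was prepared from the liver of 1 mouse.

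CYP4A enzymes are microsomal cytochrome P450s that place a hydroxyl group on the last carbon of a fatty acid, the omega position. The product can be oxidized to a dicarboxylic acid, which is shortened in peroxisomes, and with arachidonic acid as substrate the product is 20-HETE, a lipid mediator acting on blood vessels and kidney. Cyp4a10 and Cyp4a14 are textbook target genes of the fatty acid sensing receptor PPARα and respond to fasting and to PPARα agonists, whereas Cyp4a12a is known as the androgen-dependent arachidonic acid hydroxylase of male mice.

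The total count per library ranged from 15361901 to 26261394, so that 3 counts, taken as the smallest detectable amount, lay at or below 0.199 CPM, the count scaled to the size of the library, in every library. This limit covers counting error only. Mup genes gave 3253152 reads in the 12 WT libraries and 23 reads in the 12 KO libraries, with at most 11 in a KO library. The 6 hepatocyte markers summed to between 96088 and 150014 CPM in the 24 libraries, the kidney tubule markers to at most 0.165 CPM and the adipocyte markers to at most 0.464 CPM. Markers of other cell types were also summed. The Kupffer cell and macrophage markers ranged from 74.2 to 207 CPM in males and from 116 to 260.2 CPM in females. The red cell markers ranged from 149 to 259.7 CPM in males and from 40.5 to 67.8 CPM in females. This gap was uneven over the 5 red cell genes, so their sum cannot be read as a number of cells. In mWT against fWT their log2 fold changes ran from 0.31 to 3.44, and the middle gene was at 0.44. In mKO against fKO they ran from 0.91 to 3.15, and the middle gene was at 1.14. In bulk tissue of this kind, fewer cells of a type and less RNA per cell cannot be told apart.

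By the GENCODE M21 gene models of the GRCm38 build, the members lie in 1 stretch of chromosome 4, the chromosome that also carries the Mup cluster. Cyp4a12a (ENSMUSG00000066071, chr4:115299046-115332815) and Cyp4a12b (ENSMUSG00000078597, chr4:115411624-115439034) come first on the plus strand. Cyp4a14 (ENSMUSG00000028715, chr4:115486200-115496142) lies on the minus strand. Cyp4a10 (ENSMUSG00000066072, chr4:115518264-115533649), Cyp4a31 (ENSMUSG00000028712, chr4:115563649-115579015) and Cyp4a32 (ENSMUSG00000063929, chr4:115600969-115621602) follow on the plus strand. The coding sequences of Cyp4a12a and Cyp4a12b were 98.5% identical, with 23 different bases of 1527 aligned. Cyp4a10 was 96.6% identical to Cyp4a31 and 97.2% identical to Cyp4a32. Cyp4a14 stood furthest apart, with 75.0% to 76.0% identity to the other members. The members therefore form a Cyp4a12 pair, a trio of Cyp4a10, Cyp4a31 and Cyp4a32, and Cyp4a14. The 60 coding bases around the codon of the heme-binding cysteine, the residue that holds the iron of every cytochrome P450, show these relations. Capitals mark bases that differ from Cyp4a10, and the sequences of Cyp4a31 and Cyp4a32 are identical to that of Cyp4a10 in this stretch.
Cyp4a10: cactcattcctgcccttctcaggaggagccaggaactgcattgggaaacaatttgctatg
Cyp4a12a: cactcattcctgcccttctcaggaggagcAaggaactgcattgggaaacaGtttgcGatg
Cyp4a12b: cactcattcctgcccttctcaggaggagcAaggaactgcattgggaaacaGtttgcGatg
Cyp4a14: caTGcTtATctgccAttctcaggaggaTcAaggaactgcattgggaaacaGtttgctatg

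Likeness of this degree bears on the counts, because a read of 100 bases can fit more than 1 gene. Of all 100-base windows of the annotated transcripts, 35.8% of those of Cyp4a12a occurred letter for letter in Cyp4a12b, and 36.2% of those of Cyp4a12b in Cyp4a12a. The shares found in another member were 12.2% for Cyp4a10, 7.33% for Cyp4a31 and 18.2% for Cyp4a32, whereas no window of Cyp4a14 was shared with another gene. How reads fitting several genes were counted is not given in the sources used here, so the split of reads within the pair and within the trio is uncertain. The 60-base stretch with the most differences between the Cyp4a12 genes, bases 624 to 683 of the coding sequence, shows what separates their reads. Here the capitals mark the 4 bases that differ between both genes.
Cyp4a12a: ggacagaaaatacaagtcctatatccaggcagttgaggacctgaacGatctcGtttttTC
Cyp4a12b: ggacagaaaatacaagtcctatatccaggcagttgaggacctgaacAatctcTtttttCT

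Levels of different genes were compared per kilobase of exon. In mWT livers Cyp4a12a was the most abundant member, with a mean of 143 CPM per kb. It was followed by Cyp4a10 at 64.5, Cyp4a12b at 32.6, Cyp4a32 at 18.3, Cyp4a14 at 18.0 and Cyp4a31 at 1.95 CPM per kb. The ranges over 6 mice overlapped between all neighbours of this order except Cyp4a14 and Cyp4a31. In mKO livers Cyp4a12a at 177.5 and Cyp4a10 at 176 CPM per kb stood side by side, with Cyp4a14 at 129 CPM per kb next to them and Cyp4a12b at 43.4, Cyp4a32 at 22.9 and Cyp4a31 at 2.97 CPM per kb below. Only Cyp4a32 and Cyp4a31 did not overlap as neighbours there. Female livers had another order, led by Cyp4a10 and Cyp4a14 with 313 and 232 CPM per kb in fWT and 275 and 171 CPM per kb in fKO. Cyp4a32 with 10.6 and 12.5 CPM per kb and Cyp4a31 with 4.82 and 4.79 CPM per kb came next in fWT and fKO, and the Cyp4a12 genes were at or below 0.414 CPM per kb. In both female groups, Cyp4a10 overlapped Cyp4a14 and Cyp4a32 overlapped Cyp4a31, with gaps between these pairs and above the Cyp4a12 genes.

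**Figure D1:**
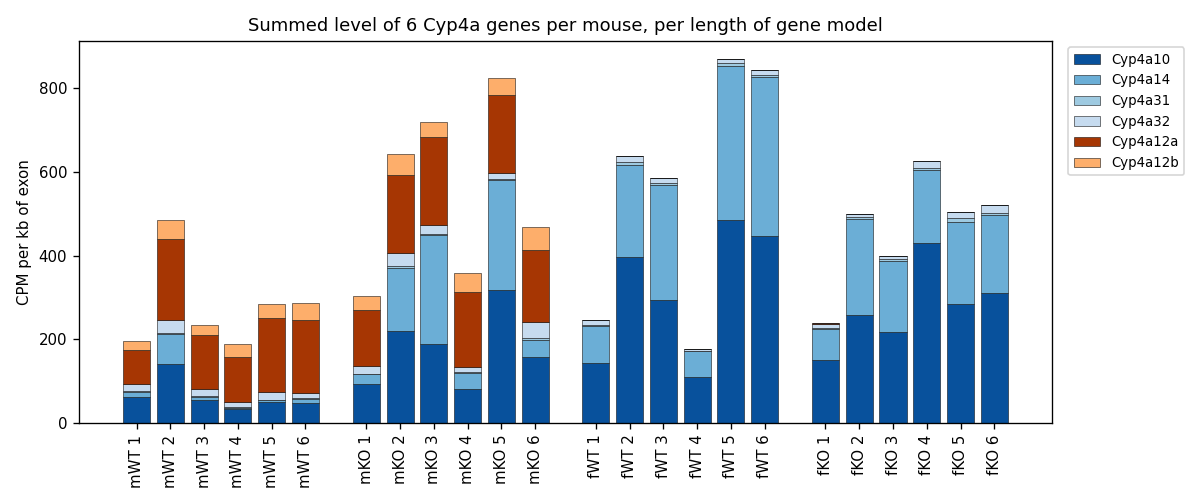
CPM per kb of exon of the 6 Cyp4a genes stacked for each of the 24 mice, with brown for the Cyp4a12 pair and blue for the other 4 members. The brown share is at most 1.21 CPM per kb in any female, and the blue share reached 247 CPM per kb at most in mWT and 598 CPM per kb at most in mKO.

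Summed over the family, the level was 279 ± 109.1 CPM per kb (SD, n = 6) in mWT, 553 ± 208 in mKO, 560.1 ± 293 in fWT and 464 ± 132 in fKO. The makeup of these sums differed. The Cyp4a12 pair gave 176 ± 52.2 CPM per kb in mWT and 221 ± 27.6 in mKO, and at most 1.21 CPM per kb in any female. The other 4 members gave 103 ± 71.9 CPM per kb in mWT, 332 ± 191 in mKO, 559.9 ± 293 in fWT and 464 ± 132 in fKO. These sums are descriptions and were not tested.

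**Figure D2:**
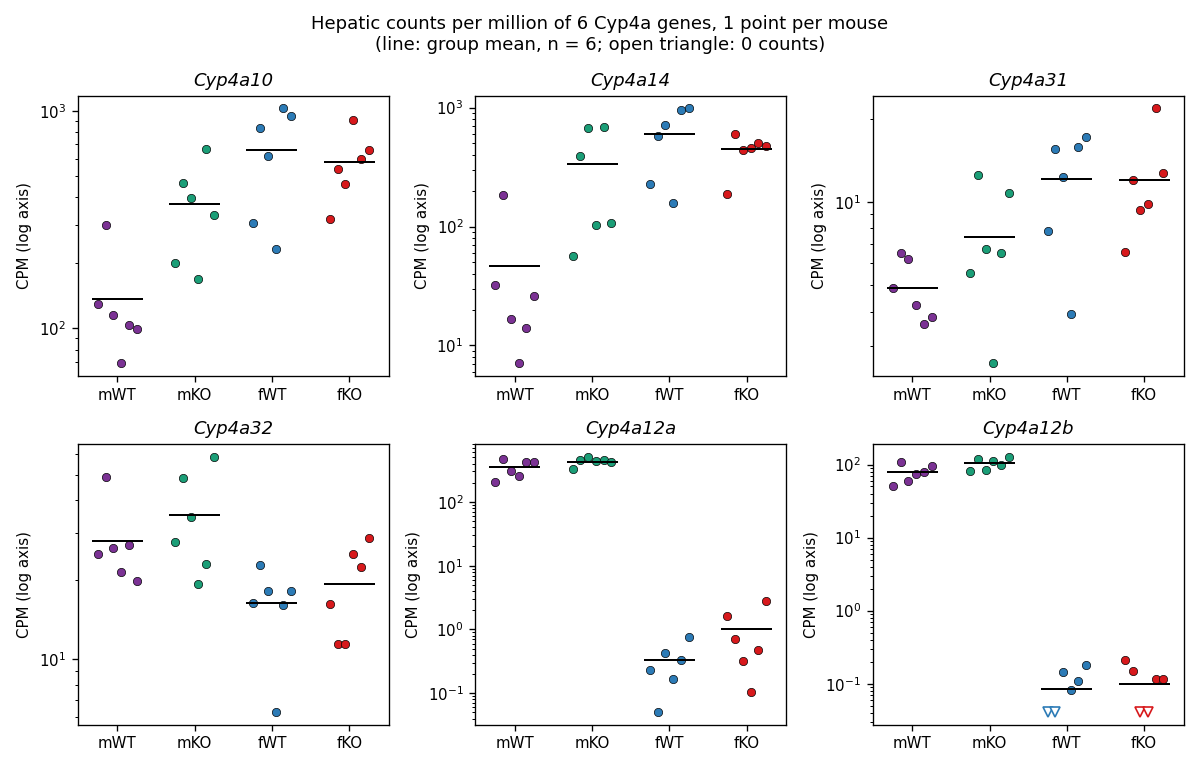
CPM of each Cyp4a gene on a log axis, 1 point per mouse, with the mean of the 6 mice of a group as a line and open triangles for libraries with 0 counts. The mouse mWT 2 is the highest mWT point for each of the 6 genes, and the female points of both Cyp4a12 genes lie below every male point.

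The first comparison asked whether loss of the Mup cluster goes along with other expression of the omega-hydroxylases in males. Cyp4a14 and Cyp4a10 were numerically 7.20-fold and 2.73-fold higher in mKO compared to mWT, with wide scatter between mice in both groups. Neither difference passed the adjusted threshold over all genes, and both had an unadjusted p-value under 0.01, the cut-off used in the study. All 6 members had a log2 fold change above 0, with a median of 0.51 against −0.0021 over all genes tested. By adjusted p, 0 of 6 members were called, where 0.211% of all genes were, and by unadjusted p under 0.01, 2 of 6 were, where 3.52% of all genes were. The share by adjusted p includes the deleted Mup genes, and with these removed 2 genes in all were called. Without mouse mWT 2, the highest mWT mouse for all 6 members, 1 of 6 (Cyp4a14) was called by adjusted p (0.325% of all genes). By unadjusted p under 0.01 it was 3 of 6, with Cyp4a10 and Cyp4a12b in addition (4% of all genes). This mouse was picked for its high values of the members, so larger differences without it follow from that choice. Leaving out 1 mouse at a time, the adjusted p in edgeR ranged from 0.00763 to 0.352 for Cyp4a14 and from 0.0521 to 0.39 for Cyp4a10. In mKO against mWT with all mice, none of the cell type markers passed the adjusted threshold. Of 6 hepatocyte markers 1, Ttr, had an unadjusted p under 0.01.

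Cyp4a14, the member most dissimilar in sequence, had 32.2, 185, 16.7, 7.06, 14.0 and 26.0 CPM in mWT mice 1 to 6. In mKO mice 1 to 6 it had 56.2, 389.7, 677, 104, 687 and 107 CPM. All mKO mice were thus above 5 of the 6 mWT mice, and 3 of them were above mWT mouse 2 as well. Group means were 46.8 ± 68.3 CPM (SD, n = 6) in mWT and 337 ± 292 CPM (SD, n = 6) in mKO, and the log2 fold change was 2.85 (standard error (SE) 0.779, adjusted p = 0.152 in edgeR by the Benjamini-Hochberg method over all genes). Of all 12330 genes, 1 had a larger positive log2 fold change. A single library decided the call, because without mWT mouse 2 the log2 fold change was 4.14 with an adjusted p of 0.00763. With DESeq2 in place of edgeR, Cyp4a14 was called with all mice included (log2 fold change 2.85, adjusted p = 0.0142).

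Cyp4a10, the most abundant member outside the Cyp4a12 pair, ranged from 69.1 to 298 CPM in mWT (median 109.6) and from 169 to 668 CPM in mKO (median 365). The groups overlapped through mWT mouse 2, the highest of its group, and 4 of 6 mKO mice were above every mWT mouse. The mean was 136 ± 81.9 CPM (SD, n = 6) in mWT and 372 ± 184 CPM (SD, n = 6) in mKO. The log2 fold change was 1.45 (SE 0.417, adjusted p = 0.173 in edgeR), and DESeq2 called it (adjusted p = 0.0387).

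The other 4 members were not called and had smaller log2 fold changes. Cyp4a31, of which few reads were counted, had 4.88 ± 1.24 CPM (SD, n = 6) in mWT and 7.44 ± 3.62 CPM (SD, n = 6) in mKO (log2 fold change 0.61, adjusted p = 0.612). For Cyp4a32 the means were 28.1 ± 10.6 and 35.2 ± 15.3 CPM (log2 fold change 0.33, adjusted p = 0.794). The androgen-dependent Cyp4a12a had 347 ± 106 CPM in mWT and 430.0 ± 61.3 CPM in mKO (log2 fold change 0.31, adjusted p = 0.786), and its close copy Cyp4a12b had 78.1 ± 22.0 and 104 ± 18.7 CPM (log2 fold change 0.41, adjusted p = 0.387).

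In females no member passed either threshold for fKO against fWT, where 0.0892% of all genes were called by adjusted p and 0.876% had an unadjusted p under 0.01. With the deleted Mup genes removed, 0 genes were called by adjusted p in this comparison. The median log2 fold change of the 6 members was 0.12, with 4 of 6 above 0. Those above 0 included Cyp4a12a (1.51) and Cyp4a12b (0.24), which had few counts in females, so the sign of this median rests partly on them. Cyp4a14 ranged from 158 to 985 CPM in fWT (median 645) and from 189 to 599 CPM in fKO (median 467), and every fKO mouse lay within the range of fWT. Its mean was 603 ± 353 CPM (SD, n = 6) in fWT and 445 ± 138 CPM (SD, n = 6) in fKO (log2 fold change −0.44, SE 0.722, adjusted p = 0.967). Cyp4a10 ranged from 233 to 1025 CPM in fWT (median 728) and from 319 to 907 CPM in fKO (median 571), again within the range of fWT. With means of 659.8 ± 333 and 581 ± 199 CPM, its log2 fold change was −0.18 (SE 0.407, adjusted p = 0.974). Cyp4a31 (12.1 ± 5.23 CPM in fWT and 12.02 ± 5.24 CPM in fKO) and Cyp4a32 (16.2 ± 5.42 and 19.2 ± 7.27 CPM) had log2 fold changes of 0.0036 and 0.24.

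The Cyp4a12 genes were close to the detection limit in females. Cyp4a12a had 1 to 17 counts per library in fWT and 2 to 48 counts in fKO, together 42 and 117 counts. Of the 117 counts, mouse fKO 6 had 48 and mouse fKO 1 had 30. The log2 fold change was 1.51 (SE 0.619, adjusted p = 0.929), with 2 of 6 fKO mice above every fWT mouse. Cyp4a12b had 0 to 4 counts in each female library, 11 in all in fWT and 13 in fKO, so that no difference was detectable at this depth. Set against the reads in male libraries, the female reads of Cyp4a12a amounted to 0.189% and those of Cyp4a12b to 0.121%, whereas Mup reads in KO libraries amounted to 0.000707% of those in WT libraries.

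The KO effects in males and females were also compared with each other. For Cyp4a14, the log2 fold change was 3.28 higher in males than in females (SE 1.05, adjusted p = 0.816 for the difference in edgeR), and for Cyp4a10 it was 1.63 higher (SE 0.581, adjusted p = 0.816). None of the 6 members passed the adjusted threshold, which 0.00811% of all genes did, and 1 of 6, Cyp4a14, had an unadjusted p under 0.01, where 1.16% of all genes did. For Cyp4a12a the difference had the opposite sign, −1.21 (adjusted p = 0.874).

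**Figure D3:**
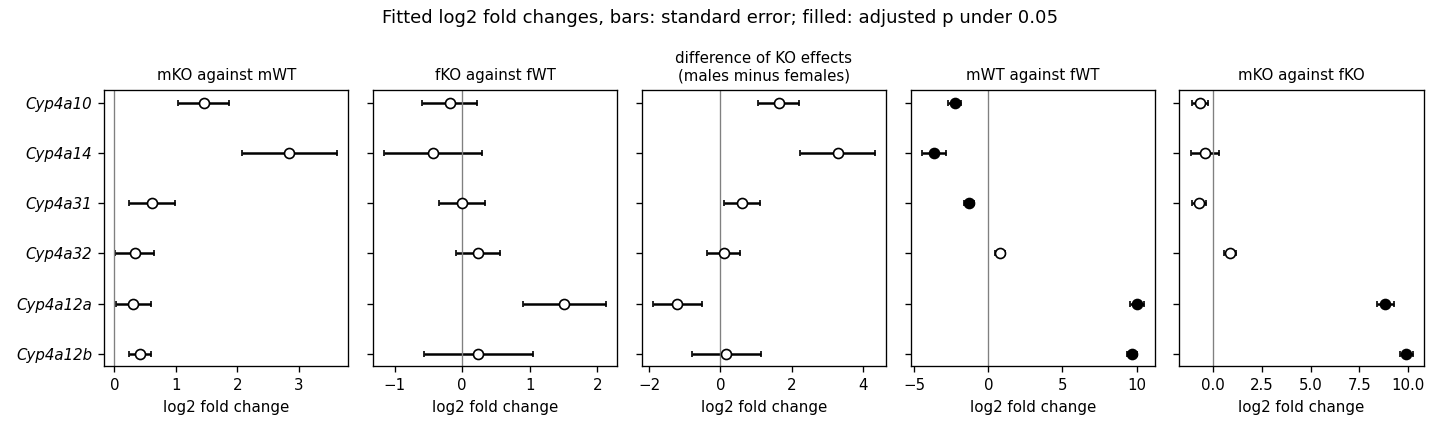
Log2 fold changes of the 6 Cyp4a genes with standard errors in 5 comparisons, with filled points for an adjusted p under 0.05. All points of mKO against mWT lie above 0 and are open, and the filled points stand in the sex comparisons, where Cyp4a10, Cyp4a14 and Cyp4a31 are filled in WT and open in KO mice.

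The same libraries allowed the sexes to be compared within each genotype. In WT mice the family split, with Cyp4a12a and Cyp4a12b higher and Cyp4a10, Cyp4a14 and Cyp4a31 lower in males. Thus 2 of 6 members were called higher in males, where 8.51% of all genes were, and 3 of 6 lower, where 8.81% of all genes were. In KO mice, the Cyp4a12 pair was called higher in males again (2 of 6, with 7.26% of all genes), and 0 of 6 were called lower (7.13% of all genes). On the female libraries alone, neither Cyp4a12 gene would have passed the filter on low counts. A gene kept through its male libraries is likely to be called higher in males, so these counts of 2 of 6 are descriptions only. Beside the members, 4 of 6 Kupffer cell markers and 4 of 8 markers of pericentral hepatocytes were called lower in mWT than in fWT, and in KO mice 0 of 6 and 3 of 8. Also called lower in males were endothelial markers (2 of 5 in WT, 1 of 5 in KO), stellate cell and fibroblast markers (1 of 6 and 2 of 6), and in WT mice 1 of 3 lymphocyte and 1 of 3 cholangiocyte markers. Of periportal hepatocyte markers 1 of 6 in WT and 2 of 6 in KO mice, and of general hepatocyte markers 1 of 6 in KO mice, were called higher in males. Red cell markers were called higher in males, 1 of 5 in WT and 5 of 5 in KO mice. The part of these cells in the sex differences of the members was not tested.

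Cyp4a12a ranged from 202 to 465 CPM in mWT and from 0.0511 to 0.756 CPM in fWT. The groups were far from overlapping, and the log2 fold change was 10.02 (SE 0.480, adjusted p = 9.16e-13). In KO mice, it ranged from 323 to 509.9 CPM in males and from 0.105 to 2.81 CPM in females (log2 fold change 8.81, SE 0.436, adjusted p = 2.25e-12). Cyp4a12b ranged from 50.2 to 109 CPM in mWT and from 81.2 to 128 CPM in mKO, whereas no female library exceeded 0.213 CPM. The fitted log2 fold changes of Cyp4a12b, 9.72 in WT mice (adjusted p = 2.17e-16) and 9.89 in KO mice (adjusted p = 1.05e-16), rest on the few female counts given above.

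Cyp4a14 was lower in mWT than in fWT (log2 fold change −3.69, SE 0.807, adjusted p = 0.00298). In all, 5 of 6 mWT mice lay below every fWT mouse, and mWT mouse 2 at 185 CPM lay above only the lowest fWT mouse at 158 CPM. Without mWT mouse 2 the log2 fold change was −4.98. In KO mice, 3 of the 6 males lay below all females and 2 lay above all females, and the log2 fold change was −0.40 (SE 0.723, adjusted p = 0.76). Cyp4a10 was likewise lower in mWT than in fWT (log2 fold change −2.28, SE 0.428, adjusted p = 0.000739), with 5 of 6 mWT mice below every fWT mouse. In KO mice its log2 fold change between the sexes was −0.64 (SE 0.409, adjusted p = 0.318). Whether the sex differences of WT and KO mice differ is the same contrast as the difference between the KO effects given above, which did not pass the adjusted threshold.

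Cyp4a31 was also lower in mWT than in fWT, with a log2 fold change of −1.30 (SE 0.367, adjusted p = 0.0164), while in KO mice the log2 fold change was −0.70 (adjusted p = 0.198). Cyp4a32 stood out of the trio with numerically higher values in males, by a log2 fold change of 0.79 in WT mice (adjusted p = 0.0978) and 0.88 in KO mice (adjusted p = 0.0699). The latter was called with DESeq2 (adjusted p = 0.0391) and without mouse mKO 4, fWT 4 or fKO 6 (adjusted p = 0.0457, 0.043 and 0.0449). When the reads of Cyp4a10, Cyp4a31 and Cyp4a32 were added together, the sex difference of the sum had the opposite sign (log2 fold change −2.03 in WT mice and −0.56 in KO mice), because most of these reads were counted on Cyp4a10.

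Mice of 1 group scattered widely in Cyp4a14 and Cyp4a10. The SD of log2 CPM of Cyp4a14 was 1.60 in mWT, 1.56 in mKO, 1.11 in fWT and 0.588 in fKO, where the median gene had between 0.184 and 0.197. In mWT, 99.9% of the tested genes scattered less than Cyp4a14, in mKO also 99.9%, in fWT 99.6% and in fKO 94.4%. For Cyp4a10, with SDs between 0.507 and 0.901, the share of genes that scattered less lay between 91.3% and 99.3%. Cyp4a12a and Cyp4a12b scattered less in males, with SDs of 0.480 and 0.419 in mWT and 0.219 and 0.265 in mKO.

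Several members went up and down together from mouse to mouse. After removal of the group means, the log2 CPM of Cyp4a10 and Cyp4a14 correlated over the 24 mice with a Pearson r of 0.874 and a Spearman rho of 0.875. The two-sided permutation p for r was 1e-05, the smallest that 100000 permutations can give, and 2e-05 for rho, with adjusted values of 0.00015 and 0.0003 over the 15 pairs of members. Without the 2 mice farthest from the median r was 0.816, and within the 12 males and the 12 females it was 0.909 and 0.905. Within the trio, r was 0.726 for Cyp4a10 and Cyp4a31, 0.735 for Cyp4a31 and Cyp4a32 (rho 0.712 and 0.684, adjusted p = 0.002 for both r and 0.0025 for both rho by permutation) and 0.617 for Cyp4a10 and Cyp4a32 (rho 0.613, adjusted p = 0.01 and 0.0091). The last relation rested partly on 2 mice, without which r was 0.374. Without their 2 farthest mice the other relations of the trio had an r of 0.644 and 0.544. The Cyp4a12 pair had an r of 0.754 (rho 0.781, adjusted permutation p = 0.003 and 0.0025), and 0.806 without 2 mice. Members that share sequence may also share reads, which bears on the relations within the trio and within the pair. Cyp4a14 shares no window with another member, and its r was 0.54 with Cyp4a31 (rho 0.608, adjusted permutation p = 0.018 and 0.01, r 0.562 without 2 mice, 0.38 within males and 0.87 within females) and 0.395 with Cyp4a32 (rho 0.377, adjusted permutation p = 0.15 and 0.17). Between the Cyp4a12 pair and the other members, r lay between 0.0583 and 0.186 and rho between 0.117 and 0.336, with adjusted permutation p of 0.44 or more for r and 0.17 or more for rho. These values include 12 female libraries with 0 to 48 counts of the Cyp4a12 genes. Within the 12 males, where these genes are well counted, r lay between 0.0452 and 0.506, with 0.42 for Cyp4a12a and Cyp4a10, 0.506 for Cyp4a12a and Cyp4a14 and 0.393 for Cyp4a12b and Cyp4a32.

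**Figure D4:**
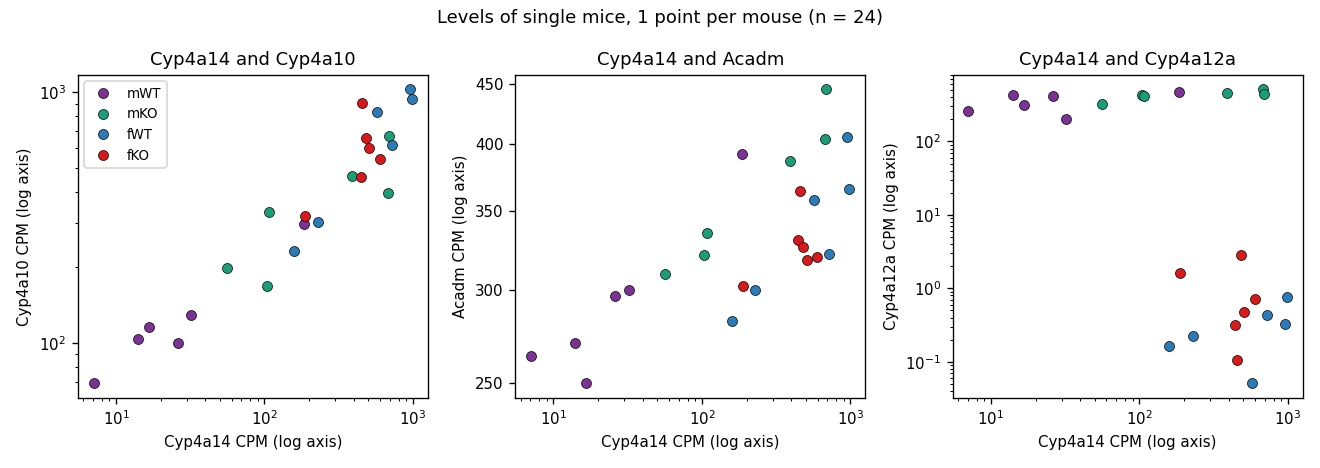
CPM of Cyp4a14 (log axis) against CPM of Cyp4a10, Acadm and Cyp4a12a (log axes) in the 24 mice, coloured by group. Cyp4a10 and Acadm are higher in mice with more Cyp4a14, and Acadm was picked for its likeness to Cyp4a14 in these same mice. Cyp4a12a separates the sexes, with 202 CPM or more in males and 2.81 CPM or less in females.

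The genes with the most similar pattern from mouse to mouse were sought among all tested genes outside the family, as the smallest root mean square difference of standardised deviations from the group means over the 24 libraries. For both Cyp4a14 and Cyp4a10 the closest was Acadm, the medium-chain acyl-CoA dehydrogenase of mitochondrial beta-oxidation, with a difference of 0.432 and 0.464, where the median gene had 1.42. Next for Cyp4a14 were Aldh3a2 (0.524), the aldehyde dehydrogenase of fatty aldehydes, and Acadl (0.556), the long-chain acyl-CoA dehydrogenase. For Cyp4a10 they were Cpox (0.500), an enzyme of heme synthesis, and Apmap (0.53). In mouse mWT 2 Acadm was at 392 CPM and Aldh3a2 at 569.7 CPM, each the highest of the mWT group, whose medians were 283 and 327 CPM. Both genes were picked by their likeness over libraries that include this mouse, so these values are not a separate observation. Cyp4a31 was closest to Slc27a2, Cln6 and Acot12, and Cyp4a32 to Slc22a5, Rbl2 and Acot12. Slc27a2 is a very long-chain acyl-CoA synthetase and Slc22a5 the carnitine transporter. For the Cyp4a12 genes the distance includes the female libraries with 0 to 48 counts and is not comparable with that of the other members. The nearest genes had differences of 0.806 for Pank2, 0.826 for Paqr4 and 0.837 for Fnip2 from Cyp4a12a, and of 0.631 for Rnaseh2a, 0.75 for Aldoa and 0.794 for Rbm19 from Cyp4a12b.

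Lists of genes acting around omega-hydroxylation were then examined in the comparison of mKO with mWT, in which no listed gene passed the adjusted threshold and genes are named by an unadjusted p under 0.01 or the lowest p of their list. An unadjusted p under 0.01 was found for 3.52% of all genes with all mice and for 4% without mouse mWT 2, against which the counts of each list stand. Mouse mWT 2 was picked for its high values of the members, so values without it are no separate result for genes that vary with the members. Other Cyp4 genes, which hydroxylate fatty acids and eicosanoids, included 7 tested genes, all with a log2 fold change above 0 and a median of 0.11. One of them, Cyp4f17, had an unadjusted p under 0.01 (11.2 ± 2.37 CPM in mWT and 15.1 ± 1.45 CPM in mKO, log2 fold change 0.42, adjusted p = 0.217). None of the 5 electron donors of microsomal P450s did, with a median of −0.014, whereas without mouse mWT 2 Por and Cyb5b, an electron-carrying cytochrome, had one (−0.84 and 0.31). Por, the P450 reductase that feeds electrons to CYP4A enzymes, had 358 ± 128 CPM in mWT and 215 ± 55.3 CPM in mKO (log2 fold change −0.74, adjusted p = 0.302).

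Further along the pathway, alcohol and aldehyde dehydrogenases oxidize omega-hydroxy fatty acids to dicarboxylic acids. The list for this step had 7 tested dehydrogenases, and whether each of them acts on these fatty acids in the liver was not tested. All 7 had a log2 fold change above 0 (median 0.14), and 2 had an unadjusted p under 0.01. These were Adh4, with 134 ± 20.5 CPM in mWT and 185 ± 30.6 CPM in mKO (log2 fold change 0.47, adjusted p = 0.163), and Aldh1a1, with 1436 ± 295 and 1877 ± 203 CPM (log2 fold change 0.39, adjusted p = 0.283). Without mouse mWT 2 it was 3 of 7, with Aldh3a2 called (0.44, adjusted p = 0.0441). Of 16 genes of dicarboxylate activation and peroxisomal beta-oxidation, 12 were above 0 (median 0.09) and 2 had an unadjusted p under 0.01. Crot, which passes shortened acyl groups from the peroxisome on to carnitine, had 529 ± 142 CPM in mWT and 873 ± 193 CPM in mKO without overlap of the groups (log2 fold change 0.72, adjusted p = 0.156). Acaa1b, a peroxisomal thiolase, had 534 ± 113 and 693 ± 129.8 CPM (log2 fold change 0.38, adjusted p = 0.217). Without mouse mWT 2 it was 4 of 16, with Ehhadh and Hsd17b4 in addition, and the median was 0.15. The list of omega-1 hydroxylases and epoxygenases had 9 tested genes. It holds P450s that oxidize fatty acids at other positions, and also the epoxide hydrolases Ephx1 and Ephx2. All 9 were above 0 (median 0.21), with Cyp2c29 (log2 fold change 0.46, adjusted p = 0.161) and Cyp2j5 (0.27, adjusted p = 0.213) at an unadjusted p under 0.01. Without mouse mWT 2 it was 3 of 9, with Cyp2c38 in addition and Cyp2j5 called (0.34, adjusted p = 0.0473). The genes added by this removal were chosen after their values were seen.

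PPARα target genes outside the family numbered 28, of which 4 are also in the peroxisomal list. In mKO against mWT, 27 of the 28 had a log2 fold change above 0 and the median was 0.26, compared to −0.0021 over all genes tested. An unadjusted p under 0.01 was reached by 5 of 28, all higher in mKO, where 3.52% of all genes reached it. These were Plin2, a lipid droplet protein (log2 fold change 0.57, adjusted p = 0.101), Cd36, a fatty acid transporter (0.68, adjusted p = 0.215), Mogat1, a monoacylglycerol acyltransferase (1.35, adjusted p = 0.111), Acadm (0.31, adjusted p = 0.236) and Acaa1b, named above. Without mouse mWT 2 it was 8 of 27 tested targets, with 2 of 27, Plin2 and Cd36, called by adjusted p (0.00194 and 0.00485), 26 above 0 and a median of 0.30. In females 12 of the 28 were above 0, with a median of −0.018 and none at an unadjusted p under 0.01. For the difference between the KO effects, 1 of 28, Cd36, had an unadjusted p under 0.01 (0.92, adjusted p = 0.816). None of 12 PPAR receptors and partners had an unadjusted p under 0.01 in either sex, and their medians were −0.064 in males and −0.065 in females. Without mouse mWT 2 the median in males was −0.11 and 1 of 12, Ppard, had an unadjusted p under 0.01 (−0.44, adjusted p = 0.242). Ppara itself had a log2 fold change of −0.31 in males (adjusted p = 0.454). Likewise 0 of 14 genes of the fasting and feeding response had an unadjusted p under 0.01 in either sex, with medians of −0.13 and 0.049.

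**Figure D5:**
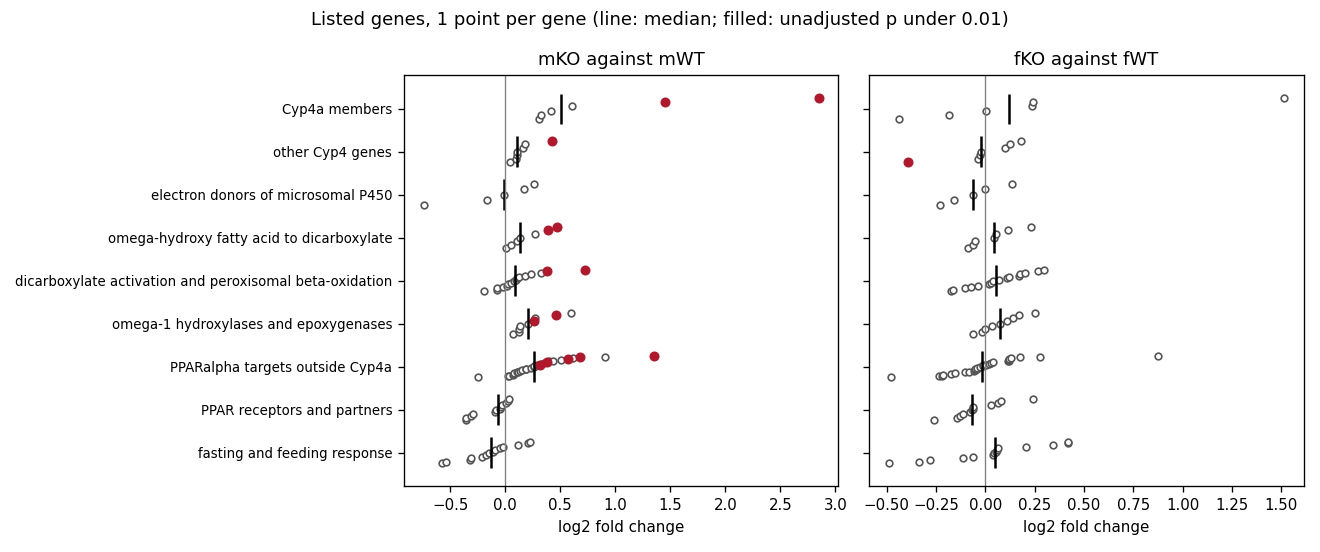
Log2 fold changes of the Cyp4a members and of 8 gene lists for mKO against mWT and fKO against fWT, 1 point per gene, with the median as a line and filled points for an unadjusted p under 0.01. For mKO against mWT the median is 0.51 for the members and 0.26 for the PPARα targets outside the family, and for fKO against fWT they are 0.12 and −0.018. The median of the members in females includes the Cyp4a12 genes, which are close to the detection limit there.

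The lists of sex-biased liver genes were read as a check of the sex labels and for their values beside the Cyp4a12 pair. All 13 male-biased genes were called higher and all 18 female-biased genes lower in males, in WT and in KO mice alike. These lists were chosen with earlier results of these data known. Some female-biased genes had 0 CPM in mWT and passed the filter on low counts only through females. The counts are therefore no separate result on sex bias. In mKO against mWT, 1 of 13 male-biased genes had an unadjusted p under 0.01, Elovl3, a fatty acid elongase (log2 fold change 1.45, adjusted p = 0.143), and 0 of 18 female-biased genes. In fKO against fWT all 13 male-biased genes had a log2 fold change above 0 (median 0.56), and 2, Cyp2d9 and Serpina1e, had an unadjusted p under 0.01 (0.71 and 1.94, adjusted p = 0.929 for both). From the list of the growth hormone and androgen axis, the estrogen receptor Esr1 had an unadjusted p under 0.01 in males (−0.94, adjusted p = 0.14), and none of the 14 genes did in females. Among the other Cyp4 genes in females, Cyp4b1 alone had an unadjusted p under 0.01 (−0.39, adjusted p = 0.929).

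Between the sexes, the enzymes around CYP4A did not follow 1 direction. Of all genes, 8.51% were called higher and 8.81% lower in mWT than in fWT. Of 16 genes of dicarboxylate activation and peroxisomal beta-oxidation, 6 were called higher and 3 lower. Scp2, a peroxisomal thiolase and sterol carrier, had the largest positive log2 fold change of this list (1.48, adjusted p = 2.33e-12), and Acot3, an acyl-CoA thioesterase, the largest negative one (−4.07, adjusted p = 0.00672). Of the 28 PPARα targets, 4 were called higher and 3 lower in mWT than in fWT. The median log2 fold change of the 28 was 0.037, with 15 above 0. Those called lower were Vnn1 (−0.99, adjusted p = 0.0442), Acot2 (−1.46, adjusted p = 0.0033) and Acadl (−0.30, adjusted p = 0.0283). In KO mice, 7 of the 28 were called higher in males and 0 lower, where 7.26% and 7.13% of all genes were. Their median was 0.29, with 23 above 0, and the log2 fold changes were 0.02 for Vnn1, −0.67 for Acot2 and −0.13 for Acadl. Vnn1, Acot2 and Acadl were picked because they were called lower in mWT, so smaller differences in KO mice can follow from that choice. The targets called higher in males are not named here.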

How the data were processed

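Stranded mRNA libraries were sequenced by the authors on a NovaSeq instrument in 1 multiplex (single-end, 100 bp), and the reads were trimmed, aligned and counted per Ensembl gene with fastp 0.20, STAR 2.7a on GRCm38.p6 and featureCounts, as named in the study's methods and the submitters' processing notes. The deposited values are unscaled counts. Counts of reads that fit several genes, and the strand setting, are not given in the sources used here.

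Symbols and coordinates come from GENCODE M21, to which 25635 of 25746 genes were matched. Genes reaching 0.66 CPM in 6 or more libraries were tested in R 4.3.3 with edgeR 4.0.16 (TMM scaling, robust quasi-likelihood fit of 4 group means to all 24 libraries, Benjamini-Hochberg over 12330 genes). Calls use an adjusted p under 0.05. Replicates are different mice by their labels, and every pair of mice in a group differed by more than sampling noise (lowest chi-square per gene 7.68). The fit was tested on simulated data. Coding sequences are the longest open reading frames of the annotated transcripts. DESeq2 1.42.0 served as an alternative, and the removal of mouse mWT 2 from the counts of listed genes was added after seeing the data, as was the split of the correlations by sex.

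The 6 members, the gene lists and the tests were chosen with earlier results of these data known. Named beside the members are listed genes with an unadjusted p under 0.01 in a KO comparison or the lowest p of their list, and for each member the 3 genes most like it. Genes named for the comparisons between the sexes were chosen after their values were seen. Of 212 listed genes, 211 were found. Protein identity was replaced by identity of coding bases. Some further single-gene results are not reported here.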

Additional observations from a re-analysis of the deposited data

Results flagged for a closer look

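Dixon's test for a value far from the others was applied to the CPM of each member in each group of 6 mice, 24 times in all. For normally distributed values chance alone gives about 1 in 20. CPM was used here without a logarithm and need not be normally distributed, so this rate may not hold. The marks can depend on the scale, and log2 CPM was not tested in this way. The test marked 3 values, all in mouse mWT 2. Cyp4a10 was at 298 CPM in this mouse, with the next highest mWT mouse at 129.6 CPM. Cyp4a14 was at 185 CPM against 32.2 CPM, and Cyp4a32 at 49.0 CPM against 27.0 CPM. The members correlate with each other from mouse to mouse, so the 3 values are not independent.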

How the results depend on the processing

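Over 30 pairs of member and comparison, alternatives gave 952 values, of which 925 kept the direction and side of the threshold, 0 lost a call, 7 gained one and 20 turned in sign. Most alternatives left out 1 mouse, also mice of groups not compared, which moves an estimate little. A result that was not called counts as kept when it stays so, and the count of 925 is to be read with this in mind. The gains were Cyp4a10 (1.45) and Cyp4a14 (2.85) in males and Cyp4a32 between KO sexes (0.88) with DESeq2, Cyp4a14 without mWT mouse 2, and Cyp4a32 without mKO 4, fWT 4 or fKO 6, as given above. With the reads of near-identical genes added together, in place of the value of each gene, the KO effect in females was −0.17 for Cyp4a31 and Cyp4a32, the difference of KO effects −1.01 for Cyp4a12b, and the sex difference of Cyp4a32 −2.03 in WT (adjusted p = 0.00133) and −0.56 in KO mice. Leaving out 1 mouse at a time, the KO effect in females ranged from −0.038 to 0.58 for Cyp4a12b and from −0.26 to 0.13 for Cyp4a31, and the difference of KO effects from −0.17 to 0.45 for Cyp4a12b and from −0.11 to 0.32 for Cyp4a32.

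Genes called by adjusted p in males numbered 26 in edgeR, 139 with DESeq2, 2 without the Mup genes, 49 with only both male groups in the fit, and 19 to 59 without single mice (59 without mWT 1, 40 without mWT 2). In females they were 11, 18 with DESeq2, 8 to 12 without single mice, and 0 without the Mup genes in edgeR, where 598 genes had an unadjusted p under 0.05. For the difference they were 1, and 11 with DESeq2. Genes with an unadjusted p under 0.01 in males numbered 434, and 284 to 525 without single mice (284 without mWT 5). The replicate numbers do not pair mice, with correlations of −0.335 to 0.169 between same-numbered mice. With a replicate block, 26 genes were called in males, 16 in females, 1747 between WT sexes and 1374 between KO sexes, and Cyp4a14 in males had a log2 fold change of 3.06 (adjusted p = 0.203).

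Counts near 0 in females limit what can be said about the Cyp4a12 genes there, and shared sequence limits the split of reads within the Cyp4a12 pair and among Cyp4a10, Cyp4a31 and Cyp4a32. The scatter of Cyp4a10 and Cyp4a14 limits the precision of the KO comparison in males, and 1 deletion event stands behind all KO mice.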
